A study of Homo sapiens with 28 samples.

Results

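At the time labelled 48 after doxycycline, SK-N-AS cells with an inducible MYCN gene carried more than 50 times the MYCN signal of the same line at time 0. Genes of ribosome assembly, the chaperones and the respiratory chain were among those called higher there, and genes of the matrix, the interferon response and the neuronal cytoskeleton among those called lower. The comparison rests on 3 arrays of time 48 and 3 of time 0, chosen by their sample titles, 6 of the 28 arrays of the series. Each array measured total RNA of the whole culture. The parent line SK-N-AS is an established neuroblastoma line of human origin, and the inducible line, SK-N-AS-tet-MYCN, gains MYCN when doxycycline is added to its medium. The single mock arrays of times 0 and 48 stand beside them; they come from SKNAS-pcDNA6TR cells, which carry the vector for the tet repressor and were also harvested after doxycycline, so that the drug is common to the mock array and the induced arrays of time 48. The labels number the times (0, 4, 8, 24, 48, 96 and 192) without a unit. They do not say whether either line is 1 clone, nor whether replicates were separate cultures, so p-values measure the spread between these arrays, which may be technical.

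MYCN is a transcription factor of the MYC family that binds DNA as a dimer with MAX, preferentially at the sequence called the E-box. MYC proteins are best known for raising genes of ribosome production, metabolism and growth. Amplification of MYCN marks aggressive neuroblastoma, a childhood tumour of the sympathetic nervous system. Proteins of the MXD group, MXI1 among them, also pair with MAX and oppose MYC proteins at the same sites.

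Promoter sequences are shown first because the share of promoters with an E-box differed between the genes called higher and those called lower at time 48. Each stretch is the 250 bases before a RefSeq transcription start (GRCh38.p14), 5′ to 3′ on the strand of the gene. Capitals mark CACGTG, the canonical E-box, which reads the same on both strands. EXOSC5, a subunit of the RNA exosome (chr19:41397360-41397609, minus strand), and POLR1G, a subunit of RNA polymerase I (chr19:45406394-45406643, plus strand), rose by more than 2-fold and hold 1 copy each, beginning at -89 and -12 from the start. ODC1, ornithine decarboxylase (chr2:10448013-10448262, minus strand), has its copy at -29; a second RefSeq window of this gene has none. CTSF, the lysosomal protease cathepsin F (chr11:66568607-66568856, minus strand), holds 2 copies, at -123 and -51. PER2, a repressor of the circadian clock (chr2:238288611-238288860, minus strand), rose without a copy in this stretch. RET, a receptor tyrosine kinase of neural crest cells (chr10:43076819-43077068, plus strand), was among the genes called lower and has none either. An absent copy says only that these letters are not in this stretch. The genes shown were chosen with their values known, and a window with the motif was preferred where a gene had several. They are therefore no sample of the called genes. Of genes with a window, 28.6% of those called higher and 6.26% of those called lower held the motif in at least 1 window. GTF3A, SPHK1 and MXI1 rose without it, and TAC1 and IRF9 fell with it.
EXOSC5: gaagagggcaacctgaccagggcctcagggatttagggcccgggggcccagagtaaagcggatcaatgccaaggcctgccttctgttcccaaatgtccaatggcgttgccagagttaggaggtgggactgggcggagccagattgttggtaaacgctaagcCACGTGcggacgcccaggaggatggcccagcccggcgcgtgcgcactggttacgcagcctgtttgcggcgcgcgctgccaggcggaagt
POLR1G: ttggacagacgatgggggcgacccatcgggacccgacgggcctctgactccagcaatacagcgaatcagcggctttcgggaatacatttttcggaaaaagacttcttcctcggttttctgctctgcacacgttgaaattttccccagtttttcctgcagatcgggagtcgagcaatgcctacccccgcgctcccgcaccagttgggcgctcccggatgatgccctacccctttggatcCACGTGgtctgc
ODC1: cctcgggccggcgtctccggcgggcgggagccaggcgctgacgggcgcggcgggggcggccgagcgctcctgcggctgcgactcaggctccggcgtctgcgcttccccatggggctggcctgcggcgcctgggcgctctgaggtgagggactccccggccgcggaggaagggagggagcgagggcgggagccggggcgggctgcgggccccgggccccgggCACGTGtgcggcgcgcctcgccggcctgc
CTSF: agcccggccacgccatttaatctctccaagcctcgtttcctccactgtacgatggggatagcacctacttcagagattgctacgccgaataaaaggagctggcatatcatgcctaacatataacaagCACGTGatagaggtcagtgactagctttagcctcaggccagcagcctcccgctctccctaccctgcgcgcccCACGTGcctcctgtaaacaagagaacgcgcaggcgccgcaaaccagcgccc
PER2: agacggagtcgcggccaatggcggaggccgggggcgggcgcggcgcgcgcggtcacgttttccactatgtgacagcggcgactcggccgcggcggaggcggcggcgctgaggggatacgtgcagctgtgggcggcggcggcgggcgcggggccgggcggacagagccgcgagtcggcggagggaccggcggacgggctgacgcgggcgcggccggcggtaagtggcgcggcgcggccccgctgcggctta
RET: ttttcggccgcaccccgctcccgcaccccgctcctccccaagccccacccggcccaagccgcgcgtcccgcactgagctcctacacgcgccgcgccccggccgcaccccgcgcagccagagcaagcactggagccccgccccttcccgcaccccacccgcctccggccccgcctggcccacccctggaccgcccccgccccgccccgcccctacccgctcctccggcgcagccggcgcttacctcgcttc

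Of the 35116 RefSeq promoter windows, each reaching from 250 bases before to 50 after a start, 7.26% held CACGTG. RefSeq windows matched 9731 of the 11865 genes tested at time 48, and 9.53% of their windows held it. Among the genes called higher at time 48, by limma at a Benjamini-Hochberg adjusted p under 0.05, the share was 21.5% (210 of 977 windows), and among those called lower 4.14% (49 of 1185). Genes not called stood between, at 9.09%. For genes called higher by at least 2-fold, 31 of 76 genes with a window (40.8%) held the motif in at least 1 window, and for genes called lower by at least 2-fold 7 of 183 (3.83%). These shares are a description of the windows and were not tested.

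Other motifs were counted on both strands in the same windows. CACGCG, a variant of the E-box, stood in 26.7% of the windows of genes called higher and 13.2% of those called lower, against 17.2% over all tested genes, and CATGTG, another variant, in 9.42% and 6.84%. Of palindromes of the same length that are no E-box, GACGTC stood in 8.39% of the windows of genes called higher and 5.49% of those called lower, and CTCGAG in 7.17% and 5.91%. The median G and C content of a window was 65.3% for genes called higher and 64.3% for genes called lower. The median number of CG dinucleotides was 27 and 23. For genes called higher and lower by at least 2-fold the gap in CG dinucleotides was wider, with medians of 27 and 16. There GACGTC stood in 5.61% and 2.84% of windows, and CTCGAG in 7.48% and 5.32%. CACGTG itself holds a CG dinucleotide. Neither G and C content nor CG number was matched in the shares above, and their part in the E-box difference was not tested. Over all the alternative settings tried, the E-box share ranged from 18.0% to 31.7% for genes called higher and from 3.65% to 5.43% for genes called lower.

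**Figure D1:**
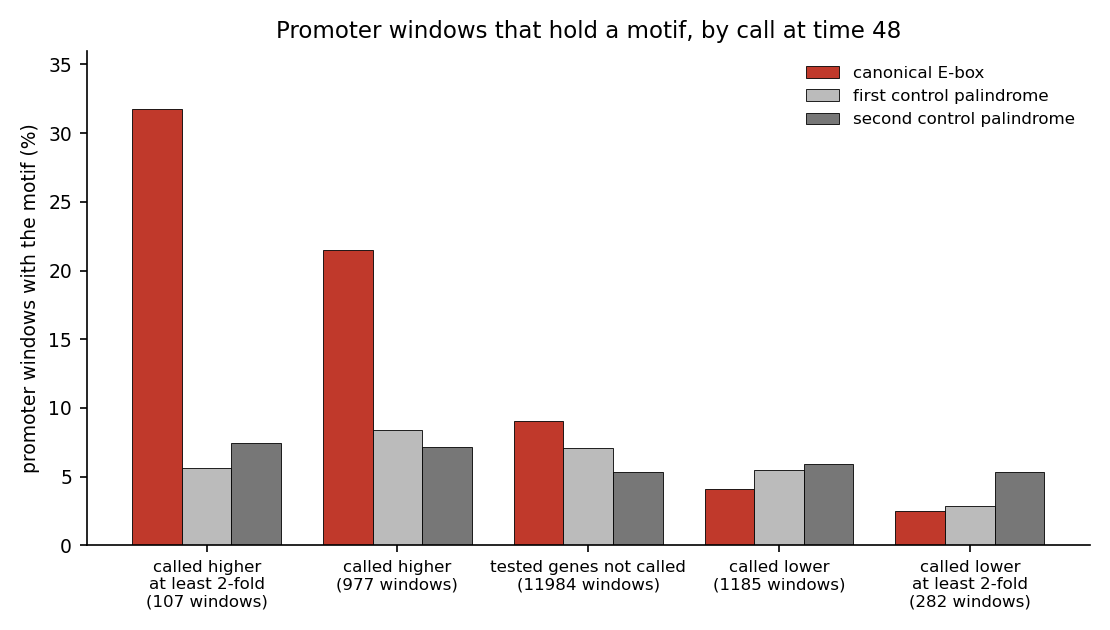
Share of RefSeq promoter windows (%) that hold the canonical E-box CACGTG or a control palindrome (first GACGTC, second CTCGAG), for genes grouped by their call at time 48 against time 0; bars start at 0 and carry no error, as each is 1 share of the windows given under it. The E-box bar falls from 31.8% of windows in genes called higher by at least 2-fold to 2.48% in genes called lower by at least 2-fold, while the control bars lie between 2.84% and 8.39%.

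Signals are the deposited linear intensities, scaled per array to a trimmed mean of 100, and changes are log2 differences from time 0 with their standard error (SE) from limma, n = 3 arrays at each time. The median signal per array was 12.9 to 20.2, and the number of arrays limits the precision. Replicate 3 of the MYCN line and the mock line differed from replicates 1 and 2 in the spiked hybridisation control bioD, at 2322 to 2770 against 1544 to 1941. The labels name no batch, so these are called here the high and the low bioD arrays, and whether they were processed apart is not known. The mock line also had the highest ratios of 3′ to 5′ actin signal, 1.33 to 1.55 against 1.10 to 1.31 in the MYCN line. Among noradrenergic neuroblast markers, PHOX2A, TH, DBH and DDC were near background, and 5 of the 23 on the array (GATA3, TBX2, SOX11, RET and ISL1) had a mean signal above 100 at time 0. Of 27 mesenchymal neuroblastoma markers 22 did; probes differ in brightness, so these counts do not rank the sets. Summed signals of Schwann cell, endothelial and haematopoietic markers were at most 150.3 in the 6 arrays compared, though PECAM1, an endothelial marker, was called higher at time 48 (0.83, limma adjusted p = 0.0424). That call ended without the time 0 array of replicate 1 (0.77) or 3 (0.72), or the time 48 array of replicate 1 (0.94) or 2 (0.61). Of its 3 probe sets above the signal filter 1 changed in that direction. Epithelial markers summed to 2107.8 to 2756.3 at time 0 and 2267.4 to 3697.5 at time 48, nearly all of it KRT18, and the defining marker EPCAM read at most 4.

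The replicate 3 array of time 48 stood apart from the other two. In it MYCN was as high as in its partners, yet most genes had moved less. To place the arrays by genes whose choice used none of the time 48 arrays, 556 genes at least 2-fold lower at time 192 than at time 0 were read at time 48. Their median against the mean of time 0 was -1.21 in replicate 1, -1.04 in replicate 2 and -0.45 in replicate 3. At time 24 replicate 3 read -0.50, and at time 96 it read -0.96, so its time 48 array lay by its own time 24 array. Over 190 genes at least 2-fold higher at time 192 the medians at time 48 were 1.09, 1.09 and 0.72. Both gene sets share the time 0 arrays with every comparison given here. Of 229 genes called lower by at least 2-fold at time 48, replicate 3 was the array nearest to time 0 in 196 (85.6%), and of 106 called higher by at least 2-fold in 64 (60.4%). Where this array decides the size of a result, the value without it is given too.

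**Figure D2:**
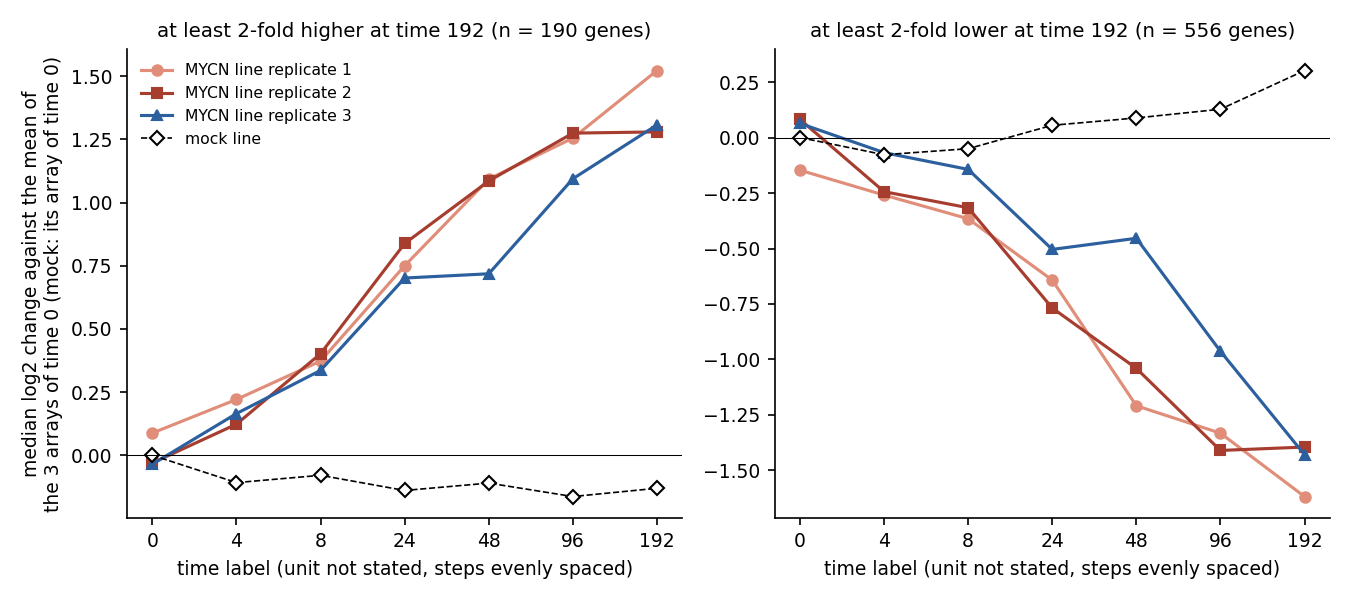
Median log2 change (vertical axes) of 190 genes at least 2-fold higher and 556 genes at least 2-fold lower at time 192, for each replicate of the MYCN line against the mean of the 3 arrays of time 0, and for the mock line against its own time 0 array; the horizontal axes give the time labels, evenly spaced, with no unit stated. At time 48 the lower set stood at -1.21, -1.04 and -0.45 in replicates 1, 2 and 3 and at 0.09 in the mock line.

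MYCN itself read 69.4, 79.2 and 103.4 in replicates 1, 2 and 3 at time 0, and 4778, 4279.9 and 4654.5 at time 48. The groups lay far apart, and time 0 was already above the mock line, which read 2.3 and 1.6. The change was 5.78 (SE 0.17, limma adjusted p = 1.22e-14), a 55.1-fold increase. Time 48 had the highest mean of the 7 times (4571, SD 259), and changes to its neighbours were small. From time 24 (mean 4372, SD 256) MYCN was higher in 3 of 3 replicates, with overlapping groups and a change of 0.06 (SE 0.17, limma adjusted p = 1). To time 96 (3678, SD 307) it was lower in 3 of 3 replicates, from 4778, 4279.9 and 4654.5 to 4023.4, 3574.4 and 3437.4, with no overlap. That change was -0.32 (SE 0.17, limma adjusted p = 0.856); with the replicate number as a block, which pairs these times, its SE was 0.14, its unadjusted p 0.0407 and its adjusted p 0.42, so it was not called. The other 9 MYCN probe sets were at background, and when probe sets named _s_at or _x_at, whose probes can be shared between transcripts, were set aside, one of these 9 stood for MYCN, with a change of -0.03.

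Of the 10 tested genes of the MYC network, 3 rose and 2 fell. MXI1, an antagonist of MYC proteins, rose in all arrays, from 346.1, 400.7 and 260.9 at time 0 to 815.9, 1134 and 995.7 at time 48. The groups did not overlap, the mock line stayed at 344.8 and 390.2, and the change was 1.56 (SE 0.18, limma adjusted p = 1.38e-05). MYC, the family member that the line expresses without induction, went the other way. It read 308.2, 130.9 and 222.9 at time 0 and 72.3, 34.2 and 51.8 at time 48, so that the highest induced array lay below the lowest array of time 0. MYC fell by 2.04 (SE 0.48, limma adjusted p = 0.00731), against 255.8 and 243.8 in the mock line. MAX, the common dimer partner, was at 969.3, 956.5 and 886.2 at time 0 and 1237.1, 1278 and 1432.8 at time 48. All induced arrays were higher, with replicate 3 the highest here, and the change was 0.49 (SE 0.07, limma adjusted p = 0.000147). It was not called with the mean of all MAX probe sets (0.17) and was -0.12 without _s_at and _x_at probe sets. MXD1, the other MAX partner called lower, changed by -0.62 with an adjusted p at the threshold (limma, 0.0499), and the 2 lower calls of the MYC network were 1 without any of the time 0 arrays or the replicate 1 or 2 array of time 48.

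Over the whole table limma called 1745 of 11865 tested genes (14.7%), of which 835 were higher (7.04%) and 910 lower (7.67%) at time 48. Each list count given here is to be read against these shares. The lists were chosen with earlier results of these data known, so the counts describe the lists and do not test them. Changes of at least 2-fold were fewer, 106 higher (0.893%) and 229 lower (1.93%). The median change was 0.51 among genes called higher and -0.67 among genes called lower, and the single mock arrays gave medians of -0.01 and 0.00 for the same genes. The arrays of the groups did not overlap in 12.3% of all tested genes on the higher and 15% on the lower side. Genes named for the largest changes or the smallest p were taken from those without overlap, so their separation adds no support. In the mock line, 1.01% of tested genes were at least 2-fold higher and 1.2% at least 2-fold lower at time 48, with 1 array each, and 51.2% were higher by any amount. Without the time 48 array of replicate 3 the count was 2247, with 957 higher and 1290 lower, and 1575 of the 1745 genes were among them. It was 940, 963 and 1121 without, in turn, the time 48 arrays of replicates 1 and 2 and the time 0 array of replicate 3. Within the low bioD arrays (replicates 1 and 2) it was 2173, and with the bioD level as a block 2696; the high bioD arrays of the MYCN line are 1 at each time and give no test. With all arrays of replicate 1 or of replicate 2 left out it was 359 and 241, and of 166 named genes that were called, 98 and 116 lost the call. Genes described in full are therefore mostly among the 33 of the 166 whose call held under each alternative that gave them a value, which was 21 alternatives for 19 genes, 20 for 10 and 19 for 4; in the others a stricter filter or the choice of probe sets left the gene out. The loss without all arrays of replicate 1 or 2 is not repeated at the others; they held without each single array unless stated.

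**Figure D3:**
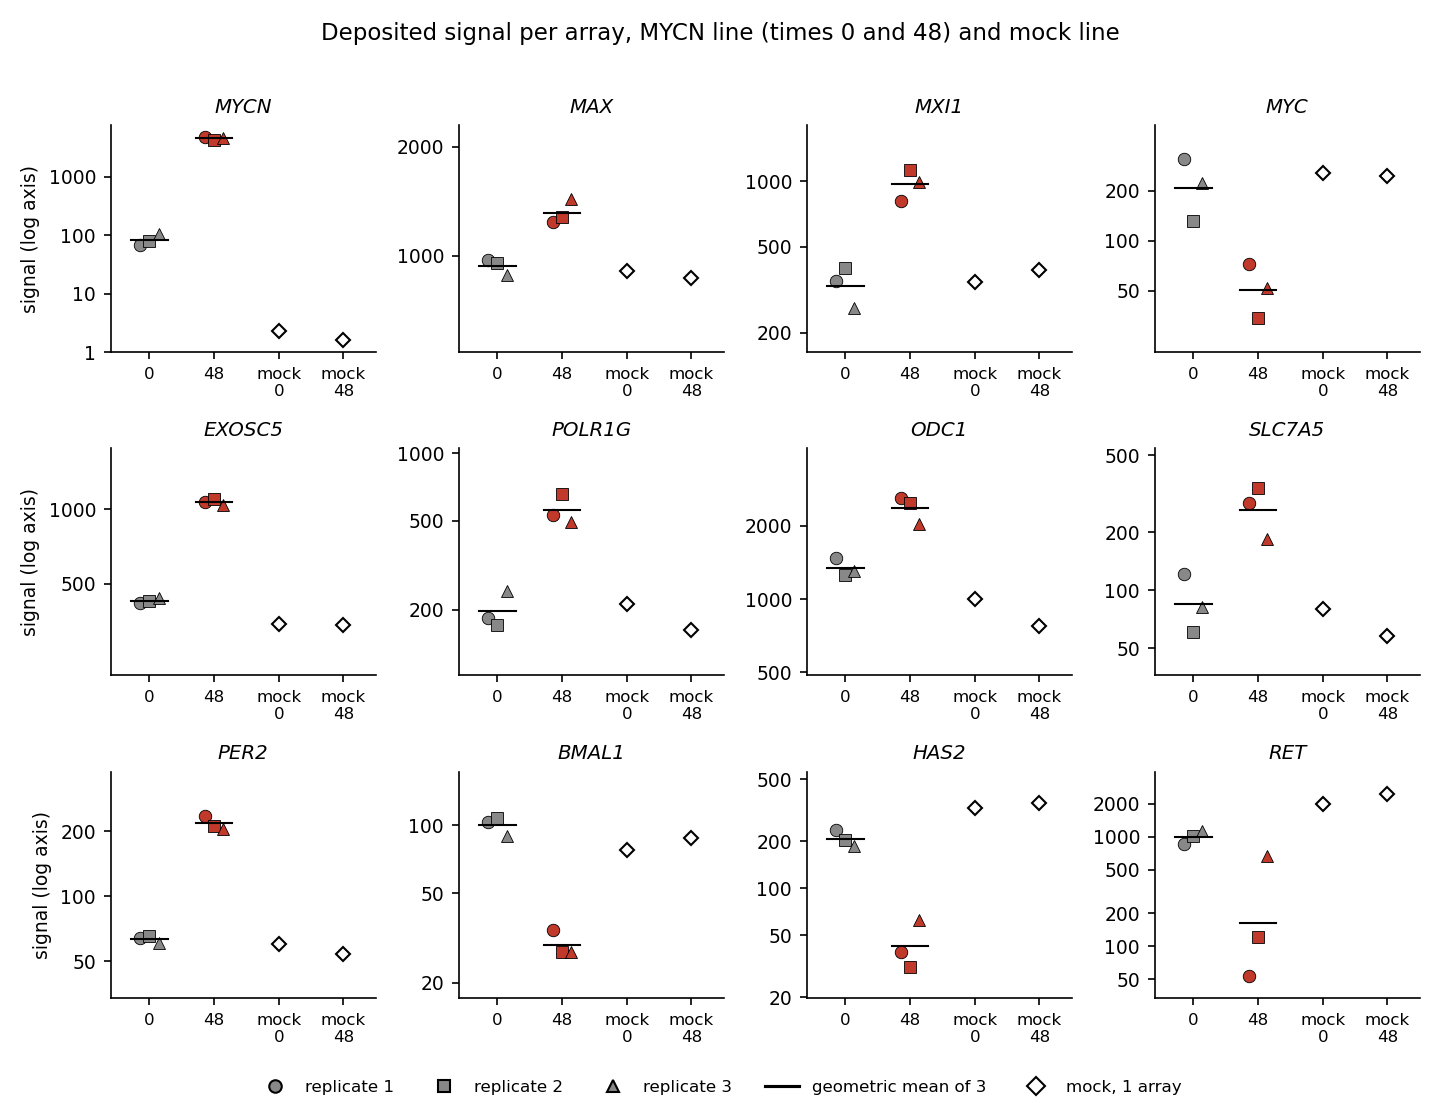
Deposited signal (log axes, linear units scaled to a trimmed mean of 100) of 12 genes in each array of the MYCN line at times 0 (grey) and 48 (red) and in the single mock arrays (open diamonds); symbols give the replicate and bars the geometric mean of 3 arrays. MYCN, MAX, MXI1, EXOSC5, POLR1G, ODC1, SLC7A5 and PER2 are higher at time 48 in every replicate, and MYC, BMAL1, HAS2 and RET lower, with the replicate 3 array of RET (664.9) well above the other arrays of time 48 (53.8 and 122.2).

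Ribosome assembly genes were among those that rose. Of 25 ribosome biogenesis genes 12 were called higher and 0 lower, where 7.04% of all tested genes were called higher, with a median change of 0.26 against -0.03 over all genes and -0.18 for the list in the mock line. Of their 26 promoter windows 12 (46.2%) held the E-box, the highest share of any list, against 9.53% over all tested genes. Other lists with many higher calls differed. The share was 22.6% in nuclear transport and 13.3% in chaperones, but 8.57% in mitochondrial ribosomal proteins and 3.57% in the respiratory chain. In the lysosome, with 2 of 27 genes called higher, it was 27.6%. RRP9, which binds the U3 small nucleolar RNA in early pre-ribosomes, rose most: 73.9, 76 and 129 at time 0 became 227.7, 213.9 and 219. The lowest induced array stood above the highest of time 0, and RRP9 changed by 1.29 (SE 0.18, limma adjusted p = 0.000124). WDR12 (0.48, SE 0.07), a factor of large subunit maturation, WDR74 (0.48, SE 0.08), which acts in the same pathway, and the nucleolar phosphoprotein NOLC1 (0.36, SE 0.07) rose by less. WDR74 was not called with the mean of its probe sets (0.65), without _s_at and _x_at probe sets (0.80) or in a fit of the 6 arrays alone. The list count was 9 without the time 48 array of replicate 3, 5 and 6 without those of replicates 2 and 1, and 6 without the time 0 array of replicate 2.

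EXOSC5, whose promoter is shown above, had the smallest adjusted p after MYCN. The exosome trims and degrades RNA, ribosomal precursors included. EXOSC5 read 415.7, 424.3 and 439.2 at time 0 and 1076.1, 1104.8 and 1044.4 at time 48, while the mock line had 342.4 and 340.1. The spread within each group was small beside the gap, and the change was 1.33 (SE 0.07, limma adjusted p = 2.18e-10). GTF3A, the factor that starts transcription of 5S ribosomal RNA genes, went from 883.2, 769.8 and 797.6 to 1652.6, 1744.5 and 1591.1, a change of 1.03 (SE 0.07, limma adjusted p = 2.14e-08).

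The polymerases that make ribosomal and transfer RNA followed in part. Of 23 subunits and factors of RNA polymerases I and III, 7 rose and 0 fell, with a median change of 0.09. POLR1G, with its E-box just before the start, was at 182.7, 171.3 and 242.5 at time 0 and at 530.5, 658.6 and 495.1 at time 48. All induced arrays lay well above the highest of time 0, whereas the mock line read 211.3 and 162.8. POLR1G rose by 1.50 (SE 0.19, limma adjusted p = 4.78e-05). POLR3G, an RNA polymerase III subunit, rose by 1.39 (SE 0.18), though its change with the mean of its probe sets was 0.70 and not called. POLR3E (0.51, SE 0.10) and POLR1B (0.57, SE 0.11) rose too, the latter not with the mean of its probe sets (0.31) or without _s_at and _x_at probe sets (0.30). TAF4B, a subunit of the TFIID complex of RNA polymerase II, read 89, 72.1 and 83.5 at time 0 and 269, 279.8 and 216.5 at time 48, and rose by 1.64 (SE 0.12, limma adjusted p = 4.27e-08). For RNA polymerase I and III the list count was 4 without the time 0 array of replicate 2 and 4 without the time 48 array of replicate 1.

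The protein part of the ribosome split by compartment. Of 26 cytosolic ribosomal proteins 0 were called by limma in either direction, and 0 had an unadjusted p under 0.05; their median change was 0.05, and RPL24, the member with the smallest p, changed by 0.09 (SE 0.07, limma adjusted p = 0.401). Of 32 mitochondrial ribosomal proteins, 12 rose and 1 fell, with a median of 0.21 and -0.05 in the mock line. MRPS5, of the small subunit, read 431.7, 431.7 and 455.6 at time 0 and 686.4, 701.3 and 556.8 at time 48, with replicate 3 the lowest of the induced arrays but above all of time 0. MRPS5 rose by 0.55 (SE 0.09, limma adjusted p = 0.000503), MRPS12 by 0.43, MRPS17 by 0.41 and MRPS15 by 0.37. Without _s_at and _x_at probe sets MRPS5 (0.44) and MRPS15 (0.50) were not called, and in a fit of the 6 arrays alone MRPS12 was not. The count of mitochondrial ribosomal proteins was 13 without the time 48 array of replicate 3 and 6 without that of replicate 1.

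Other steps of protein synthesis were called less evenly. Of 21 aminoacyl-tRNA synthetases 7 rose and 1 fell; NARS2, which charges the mitochondrial transfer RNA for asparagine, rose by 0.66 (SE 0.10), from 215, 213.4 and 220.3 to 375.6, 359.7 and 294.8, with no overlap. FARSB rose by 0.45, but not with the mean of its probe sets (0.15). Of 25 translation factors 4 were called higher, among them EIF4EBP1, which holds back cap-dependent initiation (0.52, SE 0.14). That call ended without the time 0 array of replicate 1 (0.48) or 2 (0.47) or the time 48 array of replicate 2 (0.52). The list of translation factors gave 0 without the time 48 array of replicate 2, 1 without that of replicate 1, and 1 and 2 without the time 0 arrays of replicates 2 and 3, so its count was not stable.

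Calls among genes of protein folding and nuclear transport were in the higher direction. Of 25 chaperones 13 were called higher and 0 lower, where 7.04% of all tested genes were called higher. Their median was 0.23 against 0.00 in the mock line, and from 9 to 13 were called higher without any single array. FKBP4, a co-chaperone of HSP90, read 515.3, 552.4 and 454 at time 0 and 913.4, 917 and 969.4 at time 48, and the mock line 834.7 and 879. The induced arrays lay above all of time 0 and close to the mock level; the change was 0.88 (SE 0.11, limma adjusted p = 5.15e-05). HSPA9, the mitochondrial HSP70, rose by 0.55 (SE 0.07, limma adjusted p = 3.04e-05), from 1556, 1412.4 and 1552.5 to 2190.7, 2285.6 and 2121.5. HSPE1, the partner of mitochondrial HSP60, rose by 0.44 (SE 0.07), and TRAP1, the mitochondrial HSP90, by 0.68 (SE 0.10), the latter not called with the mean of its probe sets (0.52). HSPA9, HSPE1 and TRAP1 act in mitochondria. In nuclear transport 10 of 30 genes rose and 0 fell, with a median of 0.19; XPOT, which exports transfer RNA, rose by 0.40 (SE 0.07) and the nucleoporin NUP93 by 0.48 (SE 0.09), although with the mean of its probe sets NUP93 was not called (0.75). The nuclear transport count was 8 without the time 48 array of replicate 3 and 6 without that of replicate 1.

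In the respiratory chain 14 of 31 genes rose and 0 fell, where 7.04% of all tested genes were called higher. The changes were small: the median was 0.18, against 0.06 in the mock line. ATP5MC1, a subunit of the membrane ring of ATP synthase, changed most among those named. It read 588.6, 677.9 and 592 at time 0 and 1011.2, 1156.8 and 879.2 at time 48, with no overlap, and rose by 0.71 (SE 0.10, limma adjusted p = 0.000145). CYCS, cytochrome c, rose by 0.36, NDUFA8 of complex I by 0.34 and COX5A of complex IV by 0.29; a fit of the 6 arrays alone called none of these 3, CYCS was not called with the mean of its probe sets (0.23), nor COX5A without _s_at and _x_at probe sets (0.41). The respiratory chain count was 5 without the time 48 array of replicate 1 or 2, and 9, 8 and 7 without the time 0 arrays of replicates 1, 2 and 3. Without the time 48 array of replicate 3 it was 13.

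Supply of building blocks formed a further group. Polyamines are small cations needed for growth, and ODC1 makes the first of them. ODC1 read 1479.8, 1257 and 1300.9 at time 0 and 2601.3, 2480.3 and 2043.6 at time 48, all induced arrays above time 0, while the mock line had 1005.5 and 778.7. ODC1 rose by 0.82 (SE 0.08, limma adjusted p = 2.13e-06). In all 4 of 12 genes of polyamine metabolism rose and 0 fell, and ODC1 changed most; the count was 1 without the time 48 array of replicate 1, and 2 without either one of the 2 arrays of replicate 2.

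Of 21 genes of nucleotide synthesis 7 rose and 2 fell, with a median of 0.25. PFAS, an enzyme of purine synthesis, read 262.6, 263.3 and 309 at time 0 and 408, 521.3 and 470.2 at time 48, and rose by 0.74 (SE 0.11, limma adjusted p = 0.000175). PPAT, the first committed step of the same pathway, rose by 0.71 (SE 0.12), but without _s_at and _x_at probe sets read -0.02. The 2 lower calls rested on single arrays: none was left without the time 48 array of replicate 1, and 1 without the time 48 array of replicate 2 or 3 or the time 0 array of replicate 1 or 3. Of 11 genes of serine and one-carbon synthesis 4 rose and 0 fell, among them the mitochondrial folate enzyme MTHFD2 (0.54, SE 0.10), which read 1658, 1440.1 and 1312.9 at time 0 and 2414.2, 2000.4 and 1975.9 at time 48.

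Of 19 amino acid transporters 6 rose and 0 fell, where 7.04% of all tested genes were called higher. Their median was 0.08 against -0.09 in the mock line. SLC6A15, a carrier of branched-chain amino acids and proline, went from 58.8, 55.8 and 53.2 to 246.3, 244.2 and 293.8. The groups were more than 4-fold apart and the mock line stayed at 93.8 and 88.2; the change was 2.22 (SE 0.17, limma adjusted p = 7.93e-08). SLC7A2, a carrier of cationic amino acids, went from 78.6, 78.3 and 56.7 to 292.8, 334.7 and 239.4, levels that the mock line had at both times (263.5 and 332.3). SLC7A2 rose by 2.02 (SE 0.15), but with the mean of its probe sets by 0.99, which was not called. SLC7A5, the large neutral amino acid carrier, read 120.7, 60.8 and 81.7 at time 0 and 281.5, 339.4 and 183.4 at time 48, and rose by 1.62 (SE 0.31, limma adjusted p = 0.00163). Without the time 48 array of replicate 3 the count of transporters was 7.

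Glycolysis, splicing, the proteasome, the lysosome and DNA replication held small numbers of calls. Of all tested genes 14.7% were called, 7.04% higher and 7.67% lower. The called share was 20% in glycolysis, 12.5% in splicing, 11.5% in the proteasome, 11.1% in the lysosome and 10.3% in DNA replication. It was 10% in mitosis and 25% in the D cyclins and CDK inhibitors. Of 20 glycolysis genes 3 rose and 1 fell, with a median of 0.16, of 32 splicing genes 3 and 1, of 26 proteasome genes 3 and 0, and of 27 lysosome genes 2 and 1. CTSF, with its pair of E-boxes, was the lysosomal exception: 50.7, 71.7 and 59.3 at time 0 became 151.6, 229.9 and 170.1, a change of 1.59 (SE 0.16, limma adjusted p = 2.95e-06). Of 39 genes of the G1/S transition and DNA replication, 2 rose and 2 fell, whereas 0 rose and 5 fell without the time 48 array of replicate 3. The 2 that rose were 1 without the time 48 array of replicate 1 or 2 or the time 0 array of replicate 2, and the 2 that fell were 1 without the time 48 array of replicate 1 or the time 0 array of replicate 3. LIG1, which joins DNA fragments in replication, fell by 0.62 (SE 0.10) and showed no overlap, with 213.9, 248.5 and 239.3 against 144, 148.6 and 164.9. Of 30 mitosis genes 1 rose and 2 fell, and of 16 D cyclins and CDK inhibitors 2 and 2. These small counts moved with single arrays: without any one, higher calls ran from 2 to 5 in glycolysis, 1 to 3 in splicing, 0 to 4 in the proteasome and 1 to 3 in the lysosome, and lower calls from 0 to 3 in mitosis and 1 to 2 in the D cyclins and CDK inhibitors, whose higher calls ran from 0 to 2. CDKN1C, the inhibitor p57, read 45.8, 66.8 and 48.6 at time 0 and 13.9, 21.9 and 24 at time 48, and fell by 1.45 (SE 0.29, limma adjusted p = 0.00216).

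**Figure D4:**
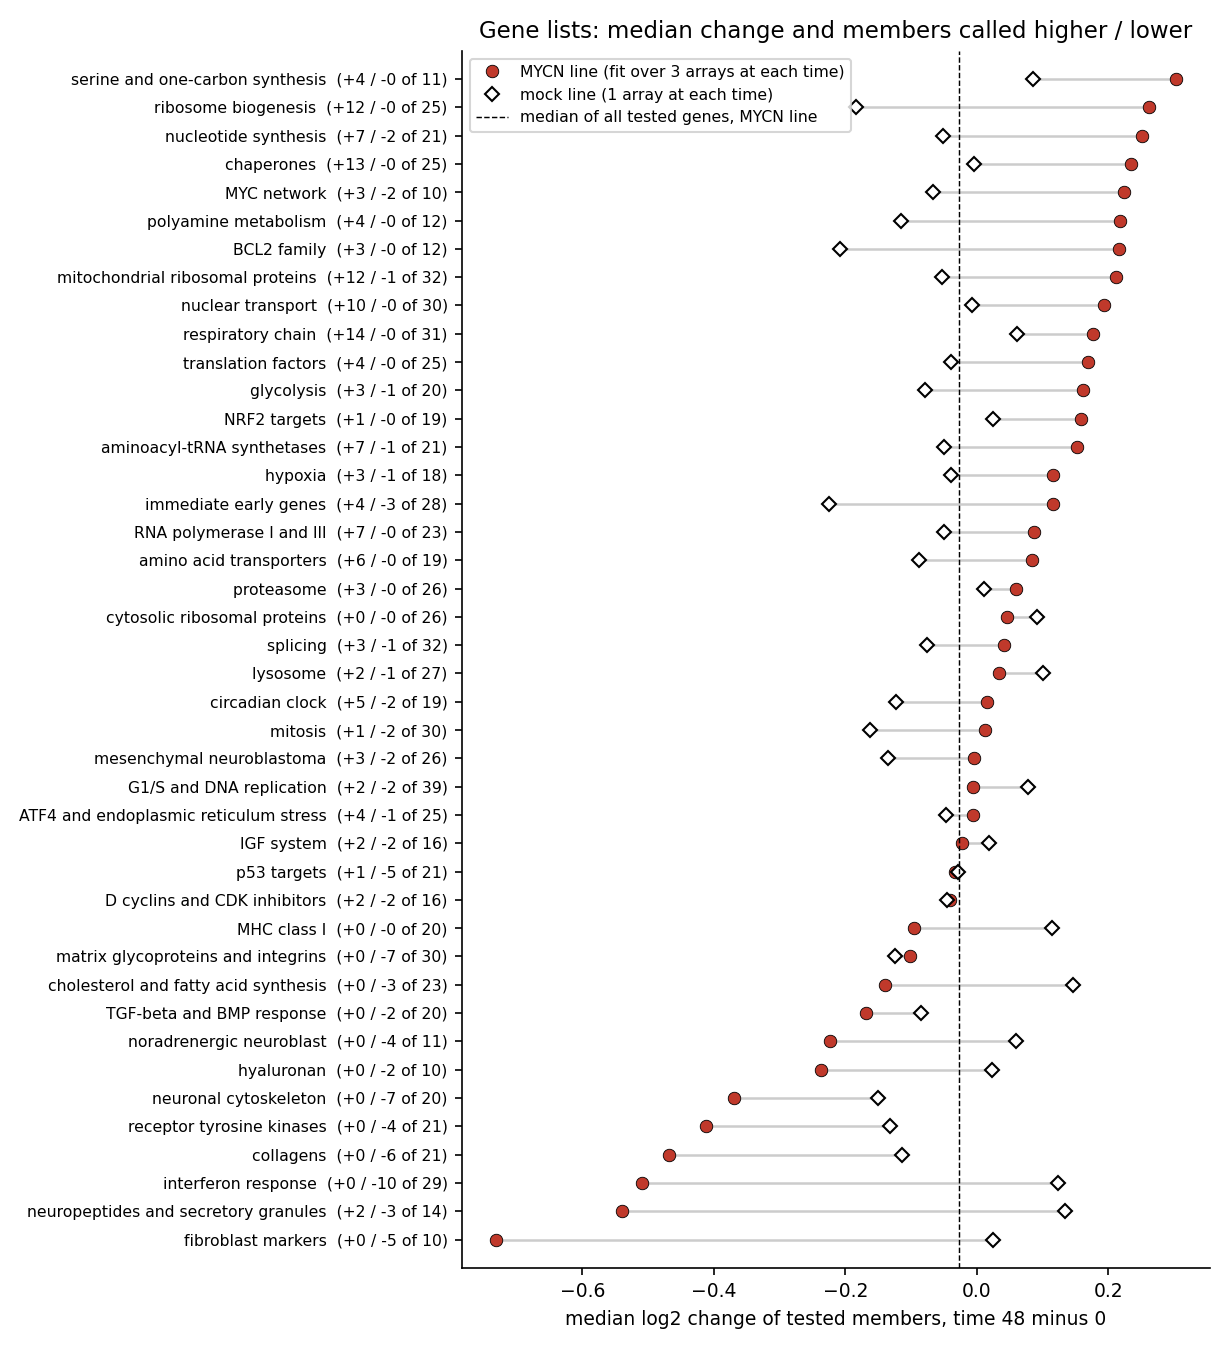
Median log2 change (horizontal axis, time 48 minus 0) of the tested members of each gene list in the MYCN line (red, 3 arrays at each time) and the mock line (open diamonds, 1 array at each time), without error bars; the numbers beside each name are members called higher and lower of those tested, and the dashed line is the median of all tested genes (-0.03). Lists of synthesis and folding lie to the right, up to 0.30 for serine and one-carbon synthesis, and fibroblast markers (-0.73), neuropeptides (-0.54), interferon response (-0.51) and collagens (-0.47) to the left.

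Counts of these lists also moved with the scaling and the probe sets. With equal array medians the higher calls fell to 6 in the respiratory chain, 6 in mitochondrial ribosomal proteins, 5 in nuclear transport, 4 in RNA polymerase I and III, 1 in polyamine metabolism and 1 in glycolysis, while 9 ribosome biogenesis genes and 10 chaperones were called. With quantile normalization 9 respiratory chain genes were called. Without _s_at and _x_at probe sets, which leaves fewer genes, the higher calls were 7 in ribosome biogenesis, 5 in chaperones, 8 in the respiratory chain and 3 in mitochondrial ribosomal proteins, and 5 interferon response genes were called lower. In a fit of the 6 arrays alone they were 3 in ribosome biogenesis, 8 in chaperones, 1 in the respiratory chain and 3 in mitochondrial ribosomal proteins, and the lower calls 6 in interferon response, 1 in collagens and 2 in matrix glycoproteins and integrins.

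Of 19 genes of the circadian clock 5 rose, 2 fell and 12 were not called, where 7.04% of all tested genes were called higher and 7.67% lower. PER2 and CRY1 repress the CLOCK and BMAL1 pair, which drives their transcription in a feedback loop. PER2 read 63.8, 65.2 and 60.7 at time 0 and 236.9, 212.9 and 205.3 at time 48, more than 3 times as high in every array, and 60.1 and 53.8 in the mock line. The change was 1.79 (SE 0.12, limma adjusted p = 2.14e-08). CRY1 rose by 1.31 (SE 0.12, limma adjusted p = 1.57e-06), from 524.2, 363.2 and 407 to 1161.1, 1070.9 and 942.7. BHLHE41, another repressor of the loop, rose by 1.62 (SE 0.23), but not with the mean of its probe sets (0.84).

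BMAL1 fell. Its signal was 103.1, 108.2 and 89.2 at time 0 and 34.4, 27.3 and 27.3 at time 48, close together within each group, against 78 and 87.5 in the mock line. The change was -1.76 (SE 0.27, limma adjusted p = 0.000229). RORA, a nuclear receptor of the clock, changed by -1.30 (SE 0.21), and PER3 (0.60, limma adjusted p = 0.0453) and BHLHE40 (0.64, limma adjusted p = 0.0315) rose by a small margin. The 5 higher calls became 3 without either one of the 2 arrays of replicate 2 or without the time 48 array of replicate 3, while PER2 and CRY1 were called in each case.

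Apart from that of DUSP5, which is in the immediate early gene list, further large increases lay outside the lists. FABP5, a fatty acid binding protein, rose from 713.9, 559.2 and 652.8 to 2202.9, 2012 and 1505.4 (1.56, SE 0.13, limma adjusted p = 1.78e-07). STAG3, a cohesin subunit known from meiosis, rose from 28.5, 24.9 and 42.2 to 111.5, 106.1 and 101.1 (1.77, SE 0.19), and the transporter pseudogene ABCA17P from 20.3, 24.7 and 13.9 to 152.4, 112.6 and 95.5 (2.63, SE 0.26, limma adjusted p = 2.74e-06). E2F5, of the E2F family, rose by 1.57 (SE 0.21). In none of these did the groups overlap, which the rule that named them required. SPHK1, the kinase that makes sphingosine 1-phosphate, rose by 1.96 (SE 0.35) with wide scatter, reading 289.1, 134.4 and 85.3 at time 48 against 43.6, 32.6 and 39.5. DUSP5, a phosphatase that acts on ERK, read 96, 87.3 and 72.4 at time 0 and 389.8, 407.3 and 127.8 at time 48, with replicate 3 again nearest to time 0, and rose by 1.69 (SE 0.37, limma adjusted p = 0.00412), or by 2.23 without that array.

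Genes of the matrix and its receptors were among those that fell. Of 30 matrix glycoproteins and integrins 7 fell and 0 rose, where 7.67% of all tested genes were called lower; the list median of -0.10 was close to that of the mock line (-0.12). TNC, the glycoprotein tenascin C, read 250.4, 165.1 and 196.3 at time 0 and 51.7, 35.1 and 68.8 at time 48, with all induced arrays below time 0, and fell by 2.01 (SE 0.33, limma adjusted p = 0.000495). FN1, fibronectin, read 2138.9, 2005.8 and 2342.8 at time 0, and 563.1, 551.3 and 1278.9 at time 48. Its replicate 3 array kept more than 2-fold the signal of the other two but stayed below time 0, and FN1 fell by 1.55 (SE 0.27, limma adjusted p = 0.000853), and its change was -1.95 without that array. The proteoglycan DCN showed the same split, with 2010.5, 2699.3 and 2419.4 at time 0 and 397.1, 377.3 and 1637.4 at time 48. DCN fell by 1.91 (SE 0.39, limma adjusted p = 0.00273), and was not called in a fit of the 6 arrays alone; without the replicate 3 array its change was -2.61. The count of matrix glycoproteins and integrins was 6 without the time 48 array of replicate 3, 4 without that of replicate 1 or of replicate 2, and 3 without the time 0 array of replicate 3.

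Of 21 collagens 6 fell and 0 rose, where 7.67% of all tested genes were called lower. The median was -0.47, and -0.11 in the mock line, and here single arrays decided the count. It was 11 without the time 48 array of replicate 3, 1 and 3 without those of replicates 1 and 2, and 3 and 2 without the time 0 arrays of replicates 1 and 3. COL5A1, which starts the assembly of collagen fibrils, fell by 1.48 (SE 0.31, limma adjusted p = 0.00311), from 197.8, 151.6 and 279.1 to 70.5, 56.2 and 97.3, and held without each single array. HAS2, which makes the matrix polysaccharide hyaluronan, read 235, 204.8 and 185.9 before induction and 39, 31.5 and 62.3 at time 48, where the mock line had 324.2 and 349.4. HAS2 fell by 2.29 (SE 0.27, limma adjusted p = 1.51e-05) and every induced array lay below all of time 0. OLFML3, a secreted olfactomedin protein, fell by 1.20 (SE 0.14, limma adjusted p = 1.34e-05), from 664, 726.9 and 805.6 to 282.4, 277.4 and 407.9.

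Fibroblast markers, of which 9 of 12 on the array had a mean signal of at least 100 at time 0, were also among the genes that fell. Of 10 tested 5 fell and 0 rose, where 7.67% of all tested genes were called lower. Their median was -0.73, and 0.02 in the mock line. Their summed signal was 21499 to 26004 at time 0, 12384 to 20218 at time 48, and 21882 and 22190 in the mock line. In bulk RNA, fewer cells that express such genes and less of their RNA per cell cannot be told apart. PDGFRB, the receptor for PDGF B, read 185.5, 191.4 and 203.7 at time 0 and 47.9, 81 and 119 at time 48, and fell by 1.32 (SE 0.26, limma adjusted p = 0.00216). The 5 fibroblast markers were 7 without the time 48 array of replicate 3, and 3 without the time 48 array of replicate 1 or 2 or the time 0 array of replicate 2 or 3. By contrast, the mesenchymal neuroblastoma list, with 26 genes, gave 3 higher and 2 lower, a median of 0.00, and 5 higher and 3 lower without the time 48 array of replicate 3. The 3 higher calls were 1 without the time 0 array of replicate 3 and 0 without the time 48 array of replicate 2, and the 2 lower calls 1 without either of the time 0 arrays of replicates 1 and 3 or the time 48 arrays of replicates 1 and 2. Members called higher were FOSL1 (1.29), HES1 (0.72) and TWIST2 (0.44), each not called without the time 48 array of replicate 2. Of the members called lower, LGALS1, galectin 1, fell by 0.86 (SE 0.15), from 3817.6, 3696.5 and 3577.1 to 2278.3, 1683.2 and 2202.6.

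Calls among interferon response genes were in the lower direction. Of 29 tested 10 fell and 0 rose, where 7.67% of all tested genes were called lower, with a median of -0.51 where the mock line gave 0.12. The count was between 8 and 11 without any single array, and 11 without the time 48 array of replicate 3. IRF7, a transcription factor that drives type I interferon genes, read 75, 82.7 and 74 at time 0 and 40.2, 39.4 and 26.4 at time 48, with replicate 3 the lowest here. IRF7 fell by 1.15 (SE 0.19, limma adjusted p = 0.000531) while the mock line read 76.1 and 63.7. IRF9, part of the factor that answers interferon receptors, fell by 0.93 (SE 0.17), from 129.9, 171.8 and 136.2 to 73.7, 80.5 and 74.7. IFIT3 (-0.67, SE 0.12) and IFI35 (-0.56, SE 0.11), both induced by interferon, fell too, and in all 4 genes the groups did not overlap. Of 20 MHC class I and peptide loading genes 0 were called by limma in either direction, with an unadjusted p under 0.05 in 1 that was higher and 3 that were lower.

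Neuronal genes fell unevenly across the arrays. Of 20 genes of the neuronal cytoskeleton 7 fell and 0 rose, where 7.67% of all tested genes were called lower. Their median was -0.37, and -0.15 in the mock line. MAP1A, which binds microtubules in neurons, read 281.5, 247.9 and 329.8 at time 0 and 67.4, 57.4 and 109.4 at time 48, and fell by 1.92 (SE 0.28, limma adjusted p = 0.000178), though the call ended with the mean of its probe sets (-1.57). The intermediate filament gene PRPH, peripherin, read 611.4, 1007 and 806.2 at time 0 and 163, 241 and 563.5 at time 48. It fell by 1.50 (SE 0.34, limma adjusted p = 0.0054), with a change of -2.00 without the replicate 3 array, and was not called in a fit of the 6 arrays alone. The neuronal cytoskeleton gave 9 lower and 3 higher without the time 48 array of replicate 3, 3 and 2 lower without those of replicates 1 and 2, and 3 and 4 lower without the time 0 arrays of replicates 2 and 3.

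Neuropeptide genes split. GAL, the neuropeptide galanin, rose from 91.9, 97.5 and 99.4 to 215.1, 211.8 and 186.9, a change of 1.09 (SE 0.14, limma adjusted p = 3.64e-05), while the mock line read 69.7 and 34.8. TAC1, which encodes substance P, stood at 1538.7, 1275.3 and 1811.3 at time 0 and at 131.8, 93.3 and 928.2 at time 48. Its replicate 3 array was far above the other two but still below time 0. TAC1 fell by 2.76 (SE 0.68, limma adjusted p = 0.00991), and the call ended without the time 48 array of replicate 1 (-2.37) or 2 (-2.13) and in a fit of the 6 arrays alone; without that of replicate 3 the change was -3.78. Of 14 genes of neuropeptides and secretory granules 2 rose and 3 fell; 6 fell without the time 48 array of replicate 3, 0 without that of replicate 1 or of replicate 2, and 1 without the time 0 array of replicate 2 or 3. The 2 that rose were 1 without any of these last 4 arrays.

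Receptor tyrosine kinases fell in 4 of 21 cases and rose in 0, where 7.67% of all tested genes were called lower. Their median change was -0.41, and -0.13 in the mock line. RET read 853.3, 1010.8 and 1116.2 at time 0, and 53.8, 122.2 and 664.9 at time 48, against 1990.8 and 2452 in the mock line. Its arrays of time 48 were more than 10-fold apart, all below time 0. The fall of 2.59 (SE 0.77, limma adjusted p = 0.0284) was called by a small margin, and the change was -3.61 (limma adjusted p = 0.00146) without the replicate 3 array. It was not called without the time 48 array of replicate 1 (-1.79) or replicate 2 (-2.38), nor without the time 0 array of replicate 1 (-2.70), replicate 2 (-2.58) or replicate 3 (-2.51). Within the noradrenergic neuroblast list, which holds RET, 4 of 11 genes fell and 0 rose; SOX11, a transcription factor of neural progenitors, fell by 1.23 (SE 0.26, limma adjusted p = 0.00365), from 540.4, 683.8 and 570.8 to 187.3, 199.3 and 442.1, a change of -1.62 without the replicate 3 array of time 48. The count of this list was 5 without the time 48 array of replicate 3, 1 without that of replicate 1 or 2, and 2 without the time 0 array of replicate 1 or 3. That of the receptor tyrosine kinases was 6, then 1 without the time 48 array of replicate 1 or 2 and 2 without the time 0 array of replicate 2.

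Genes of the IGF system, p53 and stress were called in both directions. IGFBP5, a binding protein of insulin-like growth factors, read 233.2, 264.3 and 323.1 at time 0 and 31.3, 17.8 and 52.8 at time 48, close to the mock level of 32.3 and 30.2. It fell by 3.13 (SE 0.46, limma adjusted p = 0.000178). Of 16 genes of the IGF system, 2 rose and 2 fell, the 2 higher calls being 0 without the time 48 array of replicate 2 or the time 0 array of replicate 3 and 1 without either one of the 2 arrays of replicate 1. Of 21 p53 target genes 5 fell and 1 rose: TP53I3, a quinone reductase induced by p53, fell by 0.91 (SE 0.14), and the kinase PLK2 by 1.45 (SE 0.22, limma adjusted p = 0.000191), from 1184.4, 689.2 and 1011.1 to 277, 288.3 and 502.1. The p53 list count was 4 or 5 lower without any single array. Among 25 genes of ATF4 and endoplasmic reticulum stress, 4 rose and 1 fell; the one that fell, CRELD2, a secreted protein induced by that stress, read 485.5, 446.8 and 520.8 at time 0 and 194.5, 170.6 and 222.4 at time 48. CRELD2 changed by -1.31 (SE 0.14, limma adjusted p = 5.12e-06), whereas the pseudokinase TRIB3 rose by 0.64 (SE 0.13). The 4 that rose were 2 without the time 48 array of replicate 1 or 2 or the time 0 array of replicate 3.

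Several strong decreases belonged to no list. TCF19, a nuclear protein with a PHD finger, read 249.8, 212.1 and 230.7 at time 0 and 86.8, 97.4 and 109.4 at time 48 and fell by 1.24 (SE 0.12, limma adjusted p = 1.97e-06). The mock line was at 134.8 and 109, near the induced arrays. PRKAB1, a regulatory subunit of the energy sensor AMPK, fell by 0.75 (SE 0.08, limma adjusted p = 1.14e-05), from 669.7, 621.3 and 647.9 to 413, 348.9 and 396.2. CBLN2, a secreted synapse organiser, fell by 2.75 (SE 0.42), and the long noncoding RNA LINC03095 by 3.16 (SE 0.35, limma adjusted p = 1.06e-05), from 160, 274.4 and 227.4 to 19.7, 14.4 and 48.8. MFAP4, a microfibril-associated matrix protein, read 486.1, 606.2 and 762.1 at time 0 and 48.2, 39.2 and 337.8 at time 48, with replicate 3 nearest to time 0, and fell by 2.82 (SE 0.54, limma adjusted p = 0.00182), with a change of -3.81 without that array.

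The remaining lists held small numbers of calls, to be read against the 7.04% of all tested genes called higher and the 7.67% called lower. The called share was 25% in immediate early genes, 25% in the BCL2 family and 22.2% in hypoxia, against 14.7% of all tested genes. It was 13% in cholesterol and fatty acid synthesis, 10% in TGF-beta and BMP response and 5.26% in NRF2 targets. Of 28 immediate early genes 4 rose and 3 fell: JUNB, an AP-1 subunit, rose from 53.9, 62.5 and 84.8 to 140, 167.7 and 135.5 (1.16, SE 0.21, limma adjusted p = 0.00131), and SPRY2, an inhibitor of receptor tyrosine kinase signalling, fell by 1.13 (SE 0.18). The 4 were 2 without the time 0 array of replicate 2 or 3 or the time 48 array of replicate 1 or 2, and the 3 were 1 without the time 48 array of replicate 1; without that of replicate 3 they were 6 and 4. Of 12 genes of the BCL2 family 3 rose and 0 fell, among them BID, which carries death receptor signals to mitochondria (0.69, SE 0.13); 1 was left without either one of the 2 arrays of replicate 2. In hypoxia 3 of 18 rose and 1 fell, and ANKRD37, a gene induced by HIF1, rose by 1.19 (SE 0.21); 1 was left without the time 0 array of replicate 2 or 3 or the time 48 array of replicate 1 or 2. Of 19 NRF2 targets 1 rose, and from 0 to 5 without any single array, the 5 without the time 48 array of replicate 3. Of 23 genes of cholesterol and fatty acid synthesis 3 fell, and 5 without that array; STARD4, a carrier of cholesterol, fell by 0.71 (SE 0.16). In TGF-beta and BMP response 2 of 20 fell, and 1 without the time 0 array of replicate 3 or the time 48 array of replicate 2.

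Whether these changes go beyond what the mock line did over the same interval was tested as the difference between the lines' changes. Each mock time has 1 array, assumed here to vary like the arrays of the MYCN line, and the mock arrays had the high bioD signal, as replicate 3 had. Of 11865 genes 75 were called (0.632%), 57 with a more positive change in the MYCN line (0.48%) and 18 with a more negative one (0.152%); 1285 had an unadjusted p under 0.05. Of the 835 genes called higher at time 48, 50 were among them, and of the 910 called lower 15, of which 14 had the same sign. The mock array moved in the same direction as the MYCN line in 48.9% of genes called higher and 50.8% of those called lower, against 51.4% of all tested genes. The count was 197 without the time 48 array of replicate 3, with 106 more positive and 91 more negative, and 382 without all arrays of replicate 3, with 187 and 195. It was 38 without the time 48 array of replicate 2, and 47 without the time 0 array of replicate 2. Without all arrays of replicate 1 the count was 7, and without all arrays of replicate 2 it was 4, with 0 more negative in either case. With the bioD level as a block it was 245.

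EXOSC5 differed by 1.34 (SE 0.14, limma adjusted p = 4.91e-05), the smallest p after MYCN. PER2 differed by 1.95 (SE 0.25), TAF4B by 1.85 (SE 0.24), ODC1 by 1.18 (SE 0.16) and GAL by 2.09 (SE 0.28), with limma adjusted p-values from 0.000864 to 0.000893. In ODC1 and GAL the mock array of time 48 was below that of time 0. SLC6A15 differed by 2.31 (SE 0.34) and GTF3A by 0.89 (SE 0.14), although for SLC6A15 the mean of its probe sets (2.16) was not called. The differences of EXOSC5, PER2, TAF4B, ODC1, GAL and GTF3A were not followed under the alternatives. In the other direction HAS2 differed by -2.40 (SE 0.52, limma adjusted p = 0.0392), and was not called without the time 0 array of replicate 1 (-2.31) or 2 (-2.41) or the time 48 array of replicate 1 (-2.34) or 2 (-2.18). Nor was it called with equal array medians (-2.30), with no filter on dim genes, with a floor of 16 or with eBayes without trend. Some called differences rest on dim mock signals: ARAP3, a regulator of small GTPases, read 7.5 and then 0.8 in the mock line while it fell by 0.63 in the MYCN line, and PTGDS, a prostaglandin synthase, read 13.9 and 34.2 in the mock line.

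**Figure D5:**
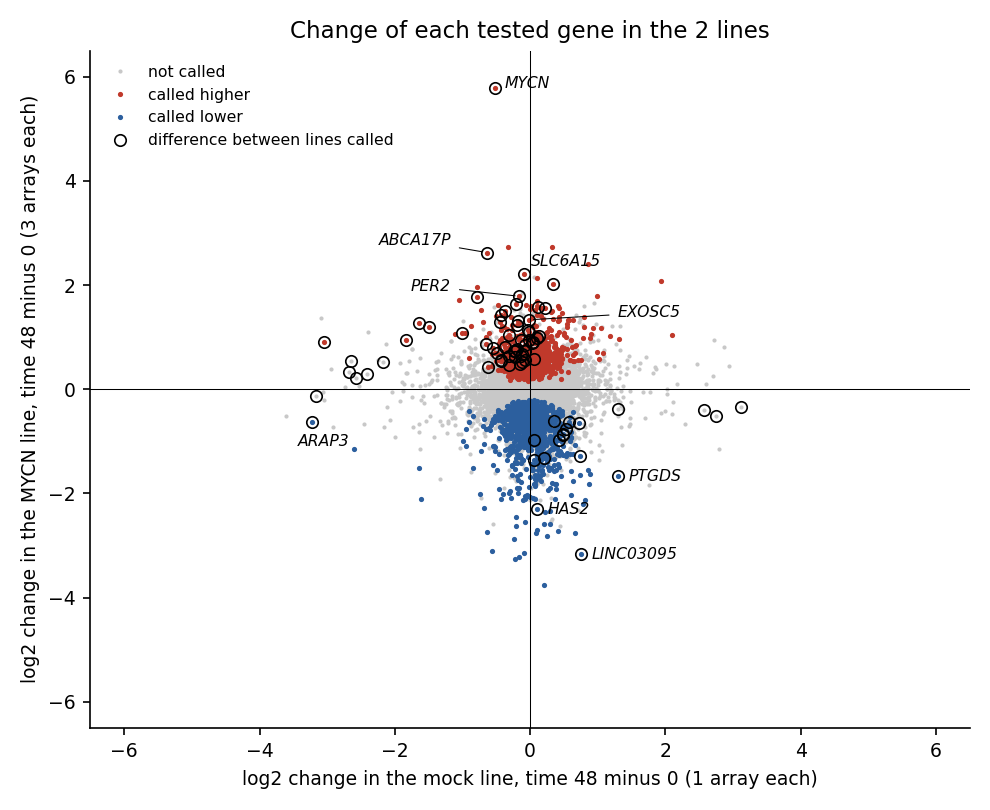
Log2 change of each of the 11865 tested genes from time 0 to time 48 in the MYCN line (vertical axis, 3 arrays at each time) against the mock line (horizontal axis, 1 array at each time); red and blue points were called higher and lower in the MYCN line, and rings mark the 75 genes whose change differed between the lines. Called genes spread along the vertical axis, with medians of 0.51 and -0.67, and centre on 0 along the horizontal one, with medians of -0.01 and 0.00.

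Few or no genes were called between time 48 and its neighbours in time, which does not show that these times were alike. For the 556 genes at least 2-fold lower at time 192, replicates 1 and 2 read -0.64 and -0.77 at time 24. At time 48 they read -1.21 and -1.04, while replicate 3 went from -0.50 to -0.45. Between times 24 and 48 limma called 0 of 11865 genes, with 335 at an unadjusted p under 0.05. It called 12 without the time 48 array of replicate 3, 1 without the time 24 array of replicate 2, and 39 within the low bioD arrays. Over the genes called higher at time 48 the median change from time 0 was 0.42 at time 24, 0.51 at time 48 and 0.52 at time 96, and over those called lower -0.50, -0.67 and -0.72; all 3 share the time 0 arrays, and the genes were chosen at time 48. Between times 48 and 96, 2 genes were called (0.0169%), both lower and both named after their values were seen, with 702 at an unadjusted p under 0.05. GASK1B, a Golgi-associated protein, read 209, 225.9 and 166.7 at time 0, 34.1, 57.3 and 79.3 at time 48, and a mean of 13.6 at time 96, a further change of -2.00 (SE 0.30, limma adjusted p = 0.0127). MXD3, a MAX partner that opposes MYC proteins, read 43.2, 51.9 and 43 at time 48 and a mean of 11.7 at time 96, a change of -2.01 (SE 0.28, limma adjusted p = 0.00714). The count was 0 without the time 48 array of replicate 2 or the time 96 array of replicate 1, 1 without the time 48 array of replicate 3 or the time 96 array of replicate 2, and 5 without the time 48 array of replicate 1. With the replicate number as a block, which pairs these arrays, it was 5, and 6 with a term for the bioD level. Whether PER2, EXOSC5 or MXI1 changed further could not be told: from time 48 to time 96 they moved by 0.27 (SE 0.12), -0.16 (SE 0.07) and -0.06 (SE 0.18), with limma adjusted p of 0.817, 0.791 and 0.984.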

How the data were processed

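Per the labels' protocols, total RNA was isolated with Trizol and RNeasy columns and labelled in a single cycle for 1-colour Affymetrix arrays. Each deposited value is a linear intensity of 1 probe set, made by the authors with MAS5 and GCOS, per the submitters' processing notes, which name no version. The trimmed mean (2% at either end) was 100 in all 28 arrays. From these, 91 values at or under 0 were set to 0.1 and log2 was taken. Of 54675 probe sets 41097 named 1 gene, 1801 several and 11777 none by the platform annotation; only the first kind was used, apart from 62 control probe sets, and a gene was read by its brightest probe set over all arrays. Of 19775 genes, the 11865 at or above the 40th percentile (log2 3.68, a signal of 12.8) were tested, a filter that uses all 28 arrays.

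Tests were made with limma 3.58.1 under R 4.3.3 (functions lmFit and eBayes, the latter with trend), two-sided, adjusted by Benjamini-Hochberg over all genes tested and called under 0.05. Time contrasts used 1 fit of all 21 MYCN line arrays, and the difference between lines 1 fit of all 28, both with 14 residual degrees of freedom. The procedure was tested on simulated data. A permutation test of 3 arrays against 3 could not go below an exact two-sided p of 0.1 and was not used. The gene lists (46, with 1113 genes, 1018 on the array) and the members compared were chosen with earlier results of these data known. Named genes were MYCN, MYC and MAX; the 14 largest increases and decreases and the 6 smallest p in each direction among called genes with groups that do not overlap and a mean signal of at least 100 in the brighter group; in each list the 4 members of smallest p; and the 5 most positive and most negative called differences from the mock line. Other genes named by list or after their values were seen are said to be so or are list members. RefSeq promoter windows (GRCh38.p14) were matched by gene identifier. No array pair held identical values. Replicate numbers were checked for pairing through deviations from the group means. Those of times 48 and 0 correlated at 0.320, 0.0550 and 0.280 for replicates 1, 2 and 3, so the numbers were not taken to pair them. Those of times 48 and 24 (0.163, 0.154 and 0.429) and of times 48 and 96 (0.265, 0.102 and 0.466) were all over 0.1. The choice for time 0 rests on replicate 2 alone, as replicates 1 and 3 lay within the range of the other pairs. Pairing by replicate number would raise the calls against time 0 from 1745 to 2840, which include all 1745.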

Additional observations from a re-analysis of the deposited data

Results flagged for a closer look

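The genes given here changed by different amounts in the MYCN and the mock line from time 0 to time 48, by limma's interaction test at an adjusted p under 0.05. The mock line has 1 array at each time, so its own spread was not measured. Values are the log2 change in the MYCN line minus that in the mock line.

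Among genes of transcription and RNA processing, the difference was 6.31 for MYCN, 1.34 for EXOSC5, 1.74 for RRP9, 1.88 for POLR1G, 0.89 for GTF3A and 1.85 for TAF4B. Clock repressors differed in the same direction, PER2 by 1.95 and CRY1 by 1.49. Genes of metabolism and transport followed, with ODC1 at 1.18, PFAS at 0.98, FABP5 at 1.34, SLC6A15 at 2.31 and SLC7A2 at 1.69. ABCA17P differed by 3.27, STAG3 by 2.55, GAL by 2.09, ECE2 by 1.47 and BID by 1.18. ARAP3 differed by 2.59 because it fell further in the mock line, where it was dim (7.5 and 0.8).

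The change was more negative in the MYCN line by -2.40 for HAS2, -3.92 for LINC03095, -2.96 for PTGDS, -2.01 for MTMR11, -1.67 for POU3F2, -1.03 for KANK2 and -0.96 for LIG1. In the mock line LINC03095 read 12 and 20.3, PTGDS 13.9 and 34.2 and POU3F2 8.9 and 22, all dim. The calls of PTGDS and POU3F2 ended without single arrays, as that of HAS2 did: PTGDS was not called without the replicate 2 (-2.74) or 3 (-2.90) array of time 0 or the replicate 1 (-2.60) or 2 (-3.07) array of time 48. POU3F2 was not called without the replicate 1 (-1.67), 2 (-1.64) or 3 (-1.71) array of time 0 or the replicate 1 (-1.61) or 2 (-1.60) array of time 48. With a floor of 16 POU3F2 differed by -0.83 and with the mean of its probe sets by -0.58, neither called, and with no filter or eBayes without trend it was not called either. MTMR11 was not called with equal array medians (-1.92) or the mean of its probe sets (-1.18), and PTGDS not with no filter, a floor of 16 (-2.76), the mean of its probe sets (-1.83) or eBayes without trend. ARAP3 was not called with the mean of its probe sets (0.67). Only the 5 most positive and 5 most negative differences were followed under the alternatives, so the stability of the others is not known. Of those followed, all but MYCN lost the call without all arrays of replicate 1. Without all arrays of replicate 2, all but MYCN and SLC6A15 lost it. For ECE2 even the change from time 0 was not called with the mean of its probe sets (0.83) or without _s_at and _x_at probe sets (0.60).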

How the results depend on the processing

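Low signals limit the precision of folds of dim genes. The 1745 genes changed at time 48 against time 0 became 1149 when array medians were made equal, 1125 with the mean of all probe sets, 1108 without _s_at and _x_at probe sets, 544 with only the arrays of the groups compared, 2696 with the bioD level (high or low) as a block, 2173 within the low bioD arrays (replicates 1 and 2) and 2840 with the replicate number as a block; leaving out replicates or single arrays gave 241 to 2247. The 75 genes whose change at time 48 differed from the mock line became 36 when array medians were made equal, 46 with no filter on dim genes, 42 with probe sets averaged, 245 with the bioD block and 282 with the replicate block, and 4 to 382 with replicates left out. The 0 genes changed between time 24 and time 48 became 2 with the mean of all probe sets, 39 within the low bioD arrays, 0 with the replicate block and 0 to 39 with replicates left out. The 2 genes changed between time 48 and time 96 became 1 with the filter at the 60th percentile, 1 with the mean of all probe sets, 1 without _s_at and _x_at probe sets, 0 with only the arrays compared, 6 with the bioD block, 5 with the replicate block and 0 to 5 with replicates left out. The high bioD arrays hold 1 of the MYCN line at each time and give no test.

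Equal array medians moved the median of all genes from -0.03 to 0.05 and ended the call of 35 of the 166 named genes. With the mean of all probe sets CCNE1 reversed to -0.28, PABPC1 to -0.29, PECAM1 to -0.37 and PSMB2 to -0.074. Without _s_at and _x_at probe sets ENO1 reversed to -0.25, MAX to -0.12, MYCN to -0.031 (its difference from the mock line to -0.59), PAICS to -0.10, PPAT to -0.018 and PSMB2 to -0.075. With a floor of 16 the ARAP3 difference reversed to -0.63. The causes were not tested. Of the 166, 33 held under each alternative that gave them a value and 108 without each single array.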
